A study of Homo sapiens with 4 samples.

Results

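The cytoplasmic translation factors of H1299, a cell line from a human non-small-cell lung cancer, were examined after exposure to 5 μM HgCl2 for 48 h and after 48 h in the solvent alone (0.6% EtOH). Members were the protein-coding genes with symbols of the initiation factors EIF1 to EIF6, together with EEF1A, EEF1B, EEF1D and EEF1G genes, EEF2, ETF1 and GSPT1. The kinases EIF2AK1 to EIF2AK4, the EIF4E-binding proteins EIF4EBP1 to EIF4EBP3 and EIF4ENIF1 were left out. This gave 61 of 19926 protein-coding genes, with 684 of the 227368 listed transcripts. The symbol pattern also took in 5 genes of EEF1A methyltransferases or their readthrough, which modify an elongation factor and are not factors themselves. Poly(A) RNA was sequenced, and 4 columns of raw counts were used, 2 for EtOH and 2 for HgCl2.

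Translation begins when eIF2 carries the initiator tRNA to the small ribosomal subunit with eIF1, eIF1A, eIF3 and eIF5. The eIF4 factors bind the mRNA cap, unwind the leader and recruit that complex, and eIF2B recharges eIF2 with GTP, the step that stress kinases block through the alpha subunit of eIF2. eEF1 then delivers aminoacyl-tRNAs and eEF2 moves the ribosome along the mRNA. The release factors, encoded by ETF1 and GSPT1, end the chain.

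Within each group the 2 columns differed by less than sampling noise, and they were therefore counted as 1 sample. Over the members, the variance between columns was 0.628 of that of counting in EtOH (95% interval 0.461 to 0.907, 68 transcripts) and 0.457 in HgCl2 (0.331 to 0.673, 62 transcripts). Over all transcripts with at least 20 counts in the columns of a group, the ratio was 0.5045 (0.4922 to 0.5173) in EtOH. In HgCl2 it was 0.5163 (0.5027 to 0.5305). Both are under what counting noise alone gives between separate libraries. The study describes the libraries as independent replicates, and how the columns of a group were made was not tested. With 1 sample for each condition no test across conditions was possible, and every difference describes these libraries. Total counts lay between 4720978 and 5053120. Fold changes are log2 values of HgCl2 over EtOH from edgeR with TMM scaling, and intervals are 95% Clopper-Pearson intervals of the mean counts and cover counting error alone. A transcript at least 2-fold apart is called higher or lower below.

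Counts were given for transcripts, and their place within a gene was uneven. Of the member transcripts, 348 had no base that was free of other listed transcripts, and 12 of these (3.45%) had any count. Among 163 transcripts with an uninterrupted stretch of their own of at least 150 bases, 115 (70.6%) had a count, and these held 98.4% of all member counts. Counts thus sat mainly on transcripts with bases of their own, and a value here is that of a transcript and not of its gene. In 22 of the 28 protein-coding member transcripts that averaged at least 30 counts, most of these bases lay in the 3′ UTR. In 11 of 11 retained-intron transcripts at this depth, all of them lay within an intron of another transcript of the gene. The stretches were taken from GENCODE 44 models, and some counted transcripts, such as those of EIF4E2 and EEF1AKMT2 below, have none there.

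**Figure D1:**
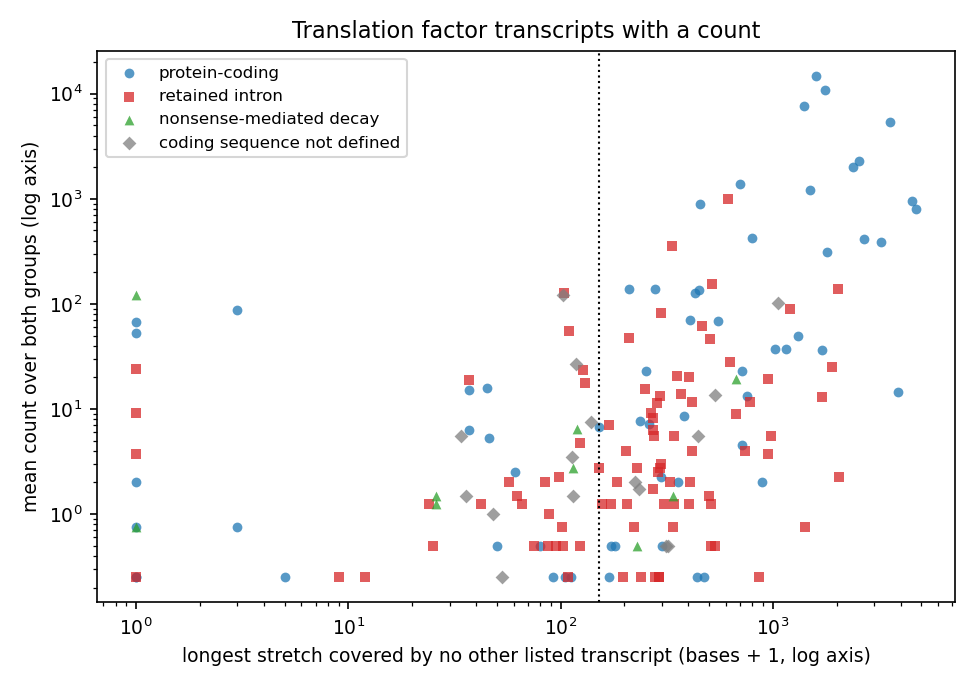
Mean count over both groups against the longest stretch of exon that no other listed transcript covers, for the member transcripts with a count, coloured by transcript type; both axes are logarithmic and the dotted line marks 150 bases. The best-counted transcripts stand to the right of the line, where 98.4% of the member counts lie.

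Some factors central to translation were not read at all. EEF1A2, EEF1G, EIF3CL, EIF4E1B, EIF4E3 and EIF6 had 0 counts in all 4 columns, as had EEF1AKMT1, EEF1AKMT3 and EEF1AKMT4-ECE2. EIF3B, EIF3G, EIF4A3, EIF4G1 and EEF1AKMT4 had counts but no transcript whose mean FPKM exceeded 1 in either group. No value is given for EIF1AY. Of the other 60 genes, 51 had a count in one of 177 transcripts, and 46 had one of the 97 transcripts that passed this FPKM filter. A count of 0 for a gene whose transcripts all overlap says nothing of its level.

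Bases that belong to a single listed transcript are given here for 5 transcripts that were higher in HgCl2, because such bases tell these transcripts from the others of their genes. They were chosen after their values were seen, and reads were not counted for each stretch. Bases of GRCh38 in capitals belong to that transcript alone, and 12 bases on each side are in lower case.
EIF2S1 ENST00000554332 (chr14:67382399-67382458, plus strand): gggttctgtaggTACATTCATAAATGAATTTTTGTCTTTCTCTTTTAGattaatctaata
EIF4G2 ENST00000525606 (chr11:10799413-10799563, minus strand): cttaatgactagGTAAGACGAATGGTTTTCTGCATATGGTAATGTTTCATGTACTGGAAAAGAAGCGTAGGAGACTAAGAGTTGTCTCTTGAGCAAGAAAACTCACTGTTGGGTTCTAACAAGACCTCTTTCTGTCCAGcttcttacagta
EIF4G2 ENST00000532383 (chr11:10801763-10802060, minus strand): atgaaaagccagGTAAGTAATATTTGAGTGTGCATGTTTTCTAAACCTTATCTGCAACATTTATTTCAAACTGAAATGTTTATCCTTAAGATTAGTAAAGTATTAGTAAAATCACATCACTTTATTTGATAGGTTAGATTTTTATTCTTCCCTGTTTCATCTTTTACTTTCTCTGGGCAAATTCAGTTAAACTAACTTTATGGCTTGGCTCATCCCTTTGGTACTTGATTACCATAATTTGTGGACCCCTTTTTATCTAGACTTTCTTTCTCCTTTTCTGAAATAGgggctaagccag
EIF4A1 ENST00000584901 (chr17:7576941-7577067, plus strand): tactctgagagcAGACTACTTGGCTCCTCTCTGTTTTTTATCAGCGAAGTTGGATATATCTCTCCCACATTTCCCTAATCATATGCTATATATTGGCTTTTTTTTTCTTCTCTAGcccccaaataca
EIF3L ENST00000412331 (chr22:37849316-37849383, plus strand): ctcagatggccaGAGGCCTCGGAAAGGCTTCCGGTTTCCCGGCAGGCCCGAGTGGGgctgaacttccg
The EIF2S1 stretch has 36 bases and ends in AG directly before an exon of 4 other transcripts, as the end of an intron does. The first EIF4G2 stretch has 127 bases, begins with GT and ends with AG, and borders exons of 8 listed transcripts on either side, as a whole intron does. The second, 274 bases, also runs from GT to AG, and is 1 piece of the 1648 bases of its own that this transcript has. The EIF4A1 stretch has 103 of the 152 bases of its own that its transcript has, and it ends in AG before an exon that 17 listed transcripts share. The EIF3L stretch differs from these in being coding, with 44 bases and 70.5% G and C against 22.2% in the EIF2S1 stretch.

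Across all members, changes in both directions were present and the centre was near 0. Of 97 transcripts, 17 were higher (17.5%) and 28 lower (28.9%), with a median of 0.03 and quartiles of -1.08 and 0.70. Over all 17547 transcripts that passed the filter, 19.2% were higher and 34.1% lower, with a median of -0.21. On the log2(FPKM + 1) scale, 14 member transcripts were higher and 11 lower, so that the share of higher among those past 2-fold was 56.0% in place of 37.8%. Over all transcripts that scale gave 16.9% higher and 19.3% lower, so the share called lower was smaller there too. The filter itself fixed part of these counts: 18 members passed it through EtOH alone, 16 of them lower, and 12 through HgCl2 alone, 10 of them higher. Of the 67 that passed in both groups 7 were higher and 12 lower. Few counts lay behind most of the calls: 36 of the 45 came from the 55 transcripts that averaged under 30 counts. There 21.8% were higher and 43.6% lower, beside 21.7% and 50.9% of all transcripts with so few counts.

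Transcripts with more counts differed less, and most lay above 0 on the TMM scale. Of 42 with a mean of at least 30 counts, 5 were higher (11.9%) and 4 lower (9.52%), with a median of 0.38. Over all 7107 transcripts of that depth 15.5% were higher and 9.53% lower, with a median of 0.21. Values above 0 were found for 32 of the 42 members (76.2%) and for 61.1% of all, and the counting interval lay wholly above 0 for 23 members and wholly below for 6. Among the 17 members with a mean of at least 200 counts, 16 were above 0 and the median was 0.40, beside 66.8% and 0.21 over all 2712 transcripts of that depth. These levels depend on the scaling. With the median of those 2712 set to 0, each member value is lower by 0.21. On that scale 25 of the 42 members lie above 0, beside 50.1% of all 7107, and the well-counted transcripts of EIF4B, EIF2S2, EIF2S3, EIF3M and GSPT1 change sign.

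**Figure D2:**
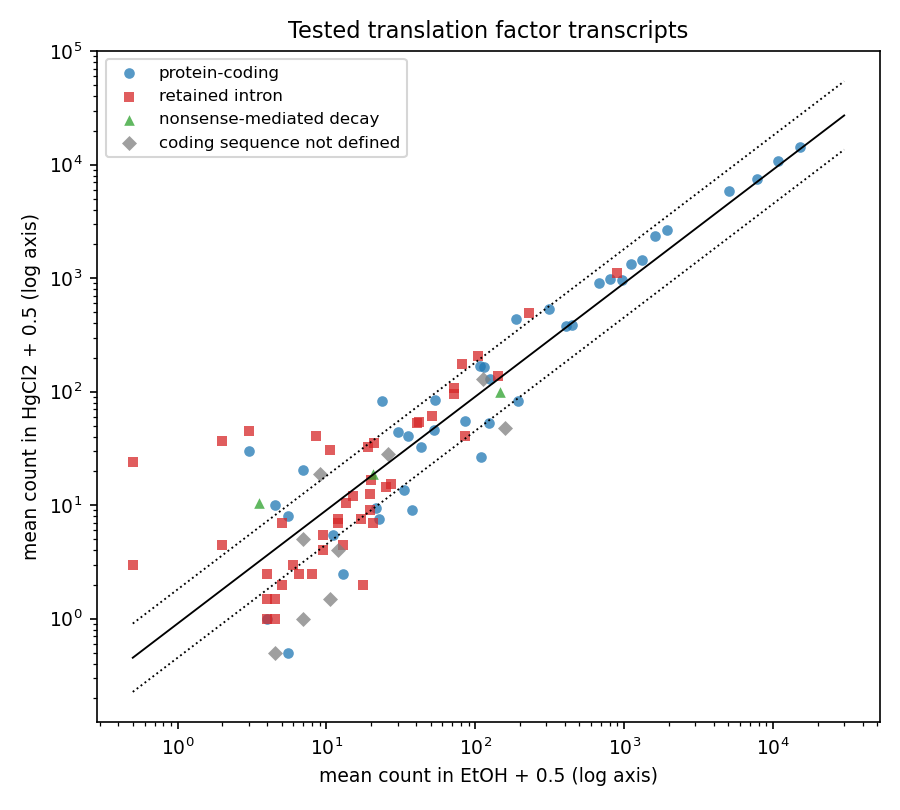
Mean counts in HgCl2 against EtOH, each plus 0.5 and on a logarithmic axis, for the 97 translation factor transcripts that passed the FPKM filter. The solid line is equal abundance after TMM scaling and the dotted lines are 2-fold; points outside the dotted lines gather at few counts, with 36 of 45 under a mean of 30.

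A handful of transcripts held most of the signal. The best-counted, of EIF2S2, took 27.4% of all member counts, 4 transcripts took 71.6% and 10 took 88.0%. Members held 1.05% and 1.04% of all counts in EtOH and 1.17% in both HgCl2 columns.

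The best-counted transcripts of the 3 eIF2 subunits did not keep their ratio. EIF2S2, the beta subunit, is listed with a single transcript, ENST00000374980 (chr20:34088309-34112243), and all of its 2556 bases are its own. It had 15370 and 15132 counts in EtOH and 14388 and 14258 in HgCl2, a log2 fold change of 0.05 (0.02 to 0.09). EIF2S3, the gamma subunit, had 7800 and 7825 against 7530 and 7405 counts on ENST00000253039 (chrX:24054956-24078810), a value of 0.08 (0.03 to 0.12). These raw counts are lower in HgCl2, and the fold changes turn positive only with the library scaling. EIF2S1 encodes the alpha subunit, which the stress kinases phosphorylate. Its ENST00000256383 (chr14:67360328-67386516) had 1590 and 1645 counts in EtOH and 2367 and 2372 in HgCl2, a value of 0.69 (0.60 to 0.79). Its own bases are 2394 in the 3′ UTR and 25 in the 5′ UTR.

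A ratio within a column needs no scaling between libraries. For each 100 counts of EIF2S2 there were 10.3 and 10.9 of EIF2S1 in EtOH and 16.5 and 16.6 in HgCl2. For EIF2S3 the same ratio was 50.7 and 51.7 in EtOH and 52.3 and 51.9 in HgCl2. Relative to EIF2S2, the transcript of EIF2S1 thus differed more between the groups than that of EIF2S3.

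Minor transcripts of EIF2S1 were higher as well. The retained-intron transcript ENST00000554332, whose own bases are the 36 above, had 1 and 2 counts in EtOH and 33 and 39 in HgCl2, a ratio of the means with a log2 interval of 2.53 to 8.57. The coding ENST00000466499 had 6 and 7 against 22 and 18 counts, a value of 1.74 (0.43 to 3.31). Both passed the FPKM filter through HgCl2 alone, which fixed their direction. EIF2A, a separate protein that can bring initiator tRNA and is no subunit of eIF2, split instead. Its retained-intron ENST00000474505 had 110 and 96 counts in EtOH and 189 and 223 in HgCl2, a value of 1.14 (0.80 to 1.50), and between 0.93 and 0.97 under 4 alternatives of filter or scaling. Another retained intron of the gene, ENST00000472926, had 23 and 17 against 4 and 9 counts, a value of -1.46 (-3.02 to -0.15). Its best-counted coding transcript, ENST00000460851, had 42 and 43 against 30 and 34 counts, a value of -0.27 (-0.98 to 0.43). The retained intron ENST00000617960 of EIF2D, which acts in recycling and re-initiation, had 149 and 134 against 139 and 134 counts, a value of 0.09 (-0.26 to 0.44). EIF2S3B is a near copy of EIF2S3, and reads of the pair may be split by the counting. It had 48 and 57 against 46 and 45 counts.

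All 4 eIF2B transcripts that averaged at least 30 counts lay between 0.70 and 0.94. EIF2B1 encodes the alpha subunit of this exchange factor. Its ENST00000424014 had 321 and 301 counts in EtOH and 536 and 541 in HgCl2, a value of 0.94 (0.73 to 1.14), and against 100 counts of EIF2S2 it stood at 2.09 and 1.99 in EtOH and at 3.73 and 3.79 in HgCl2. Its second coding transcript, ENST00000537073, had 57 and 49 against 95 and 74 counts, a value of 0.81 (0.30 to 1.34). A retained intron of EIF2B4, ENST00000475582, had 73 and 69 against 110 and 103 counts, a value of 0.73 (0.28 to 1.18). EIF2B2 had 28 and 31 against 41 and 46 counts on ENST00000266126, with an interval that reaches 0. None of the 4 passed 2-fold. The other 4 transcripts of this complex had means under 30 counts, with 1 higher and 2 lower. Of all transcripts with so few counts 21.7% were higher and 50.9% lower.

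**Figure D3:**
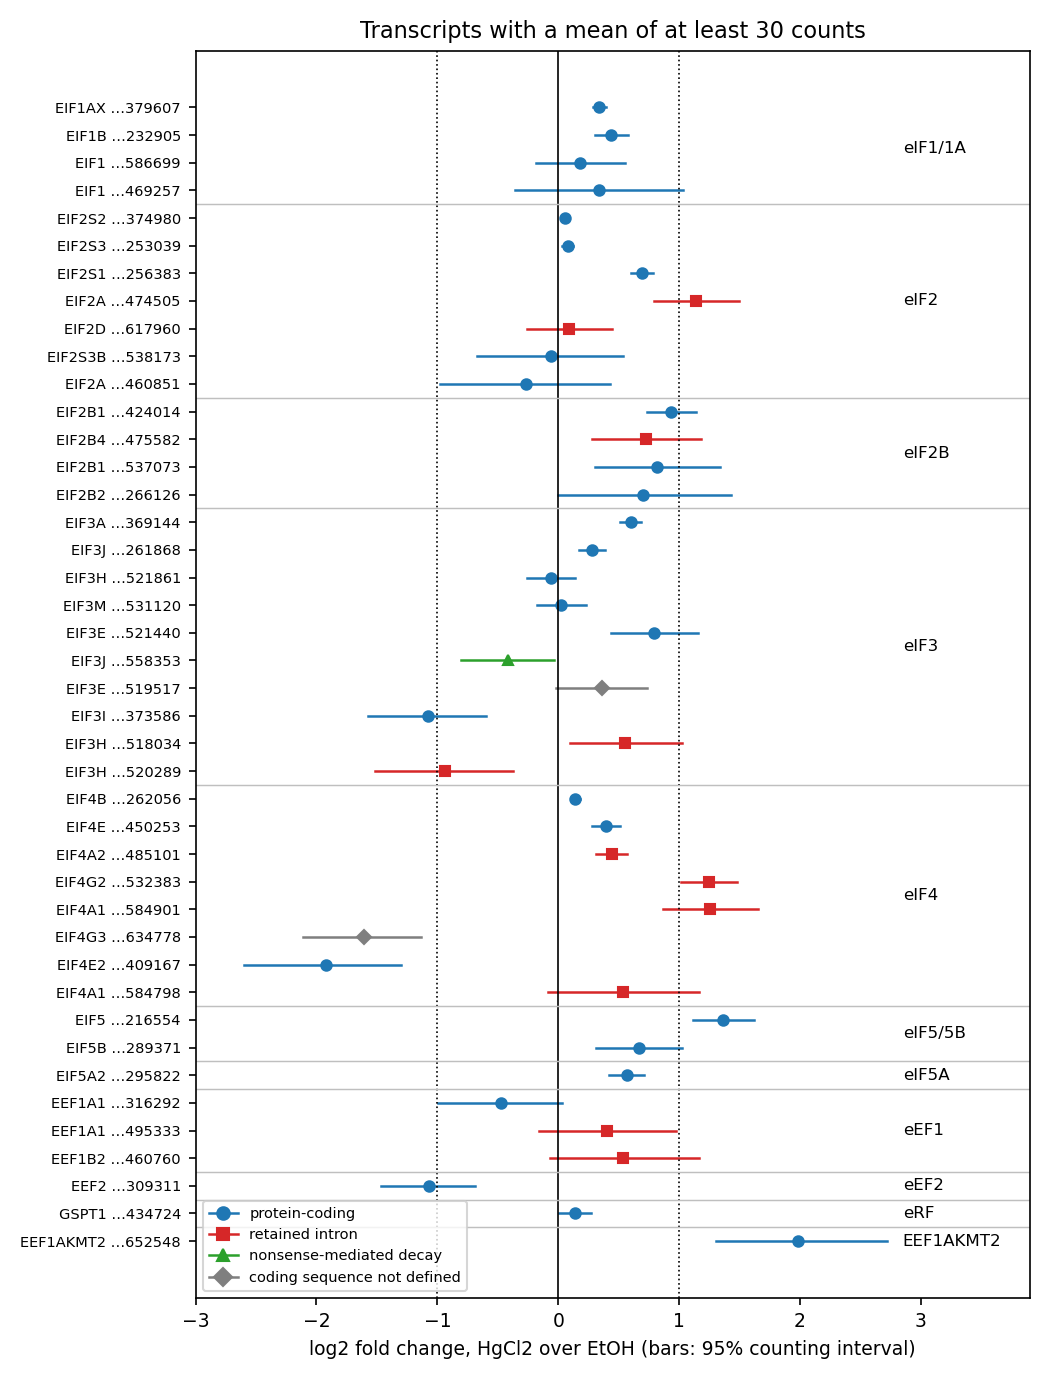
Log2 fold change of HgCl2 over EtOH for the 42 translation factor transcripts that averaged at least 30 counts, labelled by gene and the last 6 digits of the transcript and grouped by factor; bars are 95% counting intervals, colours are transcript types and dotted lines are 2-fold. The 4 eIF2B values lie between 0.70 and 0.94, and EIF4E2, EIF4G3, EIF3I and EEF2 lie to the left of -1.

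eIF1 and eIF1A hold the scanning complex open until the start codon is found. EIF1AX had 5129 and 4999 counts in EtOH and 5815 and 5802 in HgCl2, a value of 0.34 (0.29 to 0.40). EIF1B, a paralogue of EIF1, had 783 and 820 against 984 and 985 counts, a value of 0.44 (0.30 to 0.58). EIF1 itself had 131 and 120 against 131 and 127 counts on ENST00000586699, a value of 0.18 whose interval holds 0. The 4 transcripts of these genes with at least 30 counts were all above 0, beside 61.1% of all at that depth, and none passed 2-fold. The retained intron ENST00000487151 of EIF1B had 17 and 17 against 2 and 1 counts, and it passed the filter through EtOH alone.

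eIF3, the large scaffold of the initiation complex, was read in 26 transcripts of 11 of its 14 genes. Of these, 4 were higher (15.4%) and 8 lower (30.8%), beside 19.2% and 34.1% over all, with a median of -0.15. With at least 30 counts 0 of 10 were higher and 1 was lower, and the median had the other sign, 0.15. At that depth 15.5% of all transcripts were higher and 9.53% lower, with a median of 0.21. EIF3A, the largest subunit, had 1945 and 1914 counts in EtOH and 2631 and 2657 in HgCl2, a value of 0.60 (0.51 to 0.68). EIF3J, a loosely bound subunit, had 1312 and 1322 against 1446 and 1443 counts, a value of 0.28 (0.17 to 0.39). EIF3M had 409 and 404 against 375 and 375 counts, a value of 0.03 (-0.18 to 0.23). The EIF3A transcript had 476 and 474 counts for each 100 of the EIF3M transcript in EtOH and 702 and 709 in HgCl2. Against EIF3J the same ratio was 148 and 145, then 182 and 184.

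EIF3I, a core subunit, was the lower one of the 10. ENST00000373586 had 118 and 127 counts in EtOH and 51 and 54 in HgCl2, a value of -1.08 (-1.57 to -0.60). It has only 4 bases of its own in these models, and on the log2(FPKM + 1) scale it was at -0.83. EIF3E had 106 and 108 against 174 and 162 counts on ENST00000521440, a value of 0.79 (0.44 to 1.16). EIF3H, read from its best-counted coding transcript, had 427 and 458 against 405 and 363 counts, a value of -0.06 (-0.26 to 0.14). A pair of its retained introns lay on opposite sides of 0, ENST00000518034 at 0.56 (0.10 to 1.02) and ENST00000520289 at -0.93 (-1.52 to -0.38). The nonsense-mediated decay transcript ENST00000558353 of EIF3J had 149 and 143 against 94 and 104 counts, a value of -0.42 (-0.80 to -0.04). While the best-counted coding transcript of the gene was above 0, its coding ENST00000536248 was lower. That transcript had 42 and 32 against 9 and 8 counts, a value of -1.96 (-3.25 to -0.88).

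Some eIF3 transcripts with few counts passed the filter through one group alone, which fixed their direction. The EIF3L transcript ENST00000412331, with the 44 coding bases above, had 3 and 2 counts in EtOH and 30 and 29 in HgCl2, and its log2 interval ran from 1.89 to 6.37. The retained intron ENST00000532882 of EIF3F had 0 counts in both EtOH columns and 23 and 24 in HgCl2, which is at least 8.65-fold higher against a floor of 3 counts. The counting interval of its log2 ratio reaches down to 2.70, which is under that bound. EIF3K had transcripts past 2-fold in both directions. Its retained intron ENST00000590134, above the filter in both groups, had 10 and 10 against 33 and 27 counts, and its ENST00000545173, above it in EtOH alone, had 12 and 13 against 2 and 2. EIF3C and EIF3CL are near-identical copies, so the counts of EIF3C are uncertain.

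The cap-binding group held 5 higher (23.8%) and 9 lower (42.9%) of 21 transcripts, beside 19.2% and 34.1% over all. With at least 30 counts it held 2 higher and 2 lower of 8, and their median of 0.42 had the other sign than the -0.38 of all 21. At that depth 15.5% of all transcripts were higher and 9.53% lower, with a median of 0.21. EIF4B, which stimulates the helicase eIF4A, had 10711 and 10768 counts in EtOH and 10710 and 10733 in HgCl2, a value of 0.14 (0.10 to 0.18). EIF4E, the cap-binding protein, had 1104 and 1132 against 1334 and 1330 counts, a value of 0.40 (0.28 to 0.51). Both stayed under 2-fold. The helicase genes EIF4A1 and EIF4A2 and the scaffold EIF4G2, by contrast, were read through retained introns alone, and their coding transcripts did not pass the filter.

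The best-counted retained intron of each had more counts in HgCl2. EIF4A2 had 873 and 914 against 1092 and 1108 counts on ENST00000485101, a value of 0.44 (0.31 to 0.57). EIF4A1 had 79 and 82 counts in EtOH and 175 and 173 in HgCl2 on ENST00000584901, a value of 1.25 (0.87 to 1.66). EIF4G2 encodes a relative of the scaffold eIF4G that lacks the cap-binding contact. Its ENST00000532383 had 240 and 216 counts in EtOH and 481 and 497 in HgCl2, a value of 1.24 (1.01 to 1.48). The retained-intron transcript ENST00000525606, whose own stretch is printed above, had 1 and 4 counts in EtOH and 38 and 51 in HgCl2. It passed the filter through HgCl2 alone, with a log2 interval of 2.53 to 6.93. Another retained intron of the gene, ENST00000530564, had 19 and 19 against 9 and 8 counts, a value of -1.01 whose interval, -2.38 to 0.22, holds 0.

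Among the transcripts of the group with at least 30 counts, the lower ones were of EIF4G3 and EIF4E2. EIF4G3 is another eIF4G scaffold. Its ENST00000634778 (chr1:21175114-21176819), a transcript with no defined coding sequence whose own bases lie in an intron of the others, had 163 and 154 counts in EtOH and 50 and 44 in HgCl2, a value of -1.61 (-2.11 to -1.13). EIF4E2 encodes a cap-binding protein linked to repression of translation. Its coding ENST00000409167 (chr2:232550689-232569198) had 121 and 97 counts in EtOH and 29 and 23 in HgCl2, a value of -1.92 (-2.60 to -1.30). Its retained intron ENST00000498242 had 6 and 10 against 38 and 43 counts, a value of 2.46 (1.37 to 3.79). ENST00000479834 of the gene, with 12 and 8 against 0 and 2 counts, and ENST00000459714, with 7 and 1 against 0 and 1, were lower. Both passed the filter through EtOH alone, which fixed their direction. Counts summed over the gene gave -0.80, and the opposite directions of its transcripts leave the level of EIF4E2 as a gene uncertain. EIF4B likewise had minor transcripts past 2-fold in both directions, each with at most 11 counts in any column.

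EIF5, which triggers GTP hydrolysis on eIF2, had the highest value among the initiation factor transcripts with at least 30 counts. ENST00000216554 (chr14:103334237-103345025) had 184 and 191 counts in EtOH and 452 and 421 in HgCl2, a value of 1.36 (1.11 to 1.62). Its own bases are 1797 in the 3′ UTR. EIF5B, which joins the subunits, had 129 and 99 against 163 and 165 counts, a value of 0.67 (0.31 to 1.03). For each 100 counts of EIF5B there were 143 and 193 of EIF5 in EtOH and 277 and 255 in HgCl2. EIF5A2, a paralogue of EIF5A, the factor that helps stalled ribosomes, had 695 and 667 against 925 and 901 counts, a value of 0.57 (0.42 to 0.71). EIF5A itself was read only in a retained intron with 28 and 25 against 17 and 13 counts. EIF5AL1, a near copy of EIF5A whose reads may be shared with it, had 22 and 22 against 5 and 9.

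**Figure D4:**
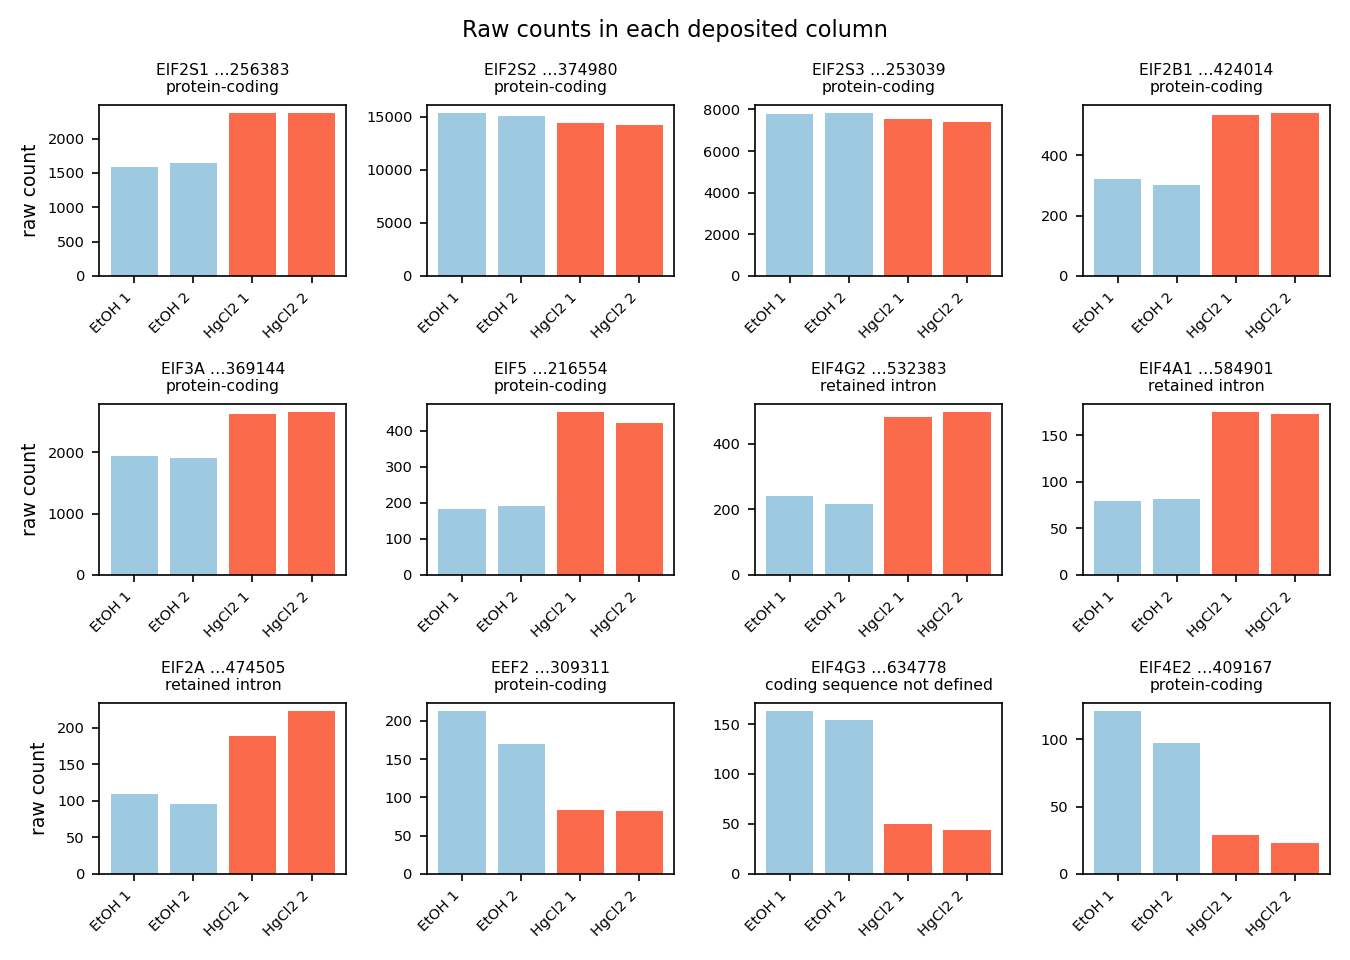
Raw counts of 12 translation factor transcripts in each of the 4 columns, EtOH in blue and HgCl2 in red, each panel with its own axis from 0 and headed by the gene, the last 6 digits of the transcript and its type. EIF2S2 and EIF2S3 are level while EIF2S1 is higher in HgCl2, and EEF2, EIF4G3 and EIF4E2 are lower in HgCl2.

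Elongation and release factors had 0 higher and 4 lower (40.0%) of 10 transcripts, with a median of -0.31, beside 34.1% lower over all transcripts. Of the 5 with at least 30 counts 0 were higher and 1 was lower, and their median had the other sign, 0.14. At that depth 15.5% of all transcripts were higher and 9.53% lower, with a median of 0.21. EEF2, the translocation factor, had 213 and 170 counts in EtOH and 83 and 82 in HgCl2 on ENST00000309311 (chr19:3976056-3985463), a value of -1.07 (-1.46 to -0.69). Without the first EtOH column it was at -0.90, and on the log2(FPKM + 1) scale at -0.79. Against 100 counts of EIF4B the EEF2 transcript stood at 1.99 and 1.58 in EtOH and at 0.775 and 0.764 in HgCl2. EEF1A1, the tRNA carrier, had 92 and 77 against 54 and 56 counts on ENST00000316292, a value of -0.48 (-0.99 to 0.03). Its retained intron ENST00000495333 had 43 and 58 against 62 and 59 counts, a value of 0.40 (-0.16 to 0.97). EEF1A1 is among the most copied genes of the genome, and its counts are uncertain for that reason. EEF1D, an exchange subunit of eEF1, had 33 and 32 against 14 and 12 counts, a value of -1.17 (-2.23 to -0.21). A retained intron of EEF1B2 had 40 and 42 against 57 and 51 counts, a value of 0.54 (-0.07 to 1.16). GSPT1, the GTPase of release, had 949 and 974 against 960 and 958 counts, a value of 0.14 (0.01 to 0.27). EEF1AKMT2, a methyltransferase of eEF1A, had 24 and 22 against 71 and 94 counts, a value of 1.98 (1.30 to 2.72), on a transcript with no base of its own in these models.

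By transcript type, the retained introns of the members had shares near those of all retained introns. Of 45 retained-intron transcripts 10 were higher (22.2%) and 13 lower (28.9%), with a median of -0.23, beside 25.1%, 35.7% and -0.23 over all retained introns. Of the 11 with at least 30 counts, 3 were higher and 0 lower, with a median of 0.54, beside 32.5% higher, 6.70% lower and a median of 0.59 over all 1059 of that depth. Protein-coding transcripts had 5 higher (12.5%) and 10 lower (25%) of 40 and a median of 0.16, beside 13.3%, 22.3% and 0.00 over all coding transcripts. Of 9 members with no defined coding sequence 1 was higher and 5 were lower, beside 24.0% and 44.2% of all such transcripts. Besides that of EIF4G3, the best-counted were EIF3E ENST00000519517 at 0.36 (-0.02 to 0.74) and EIF2S3 ENST00000460032 at 0.28 (-0.55 to 1.11). Of 3 subject to nonsense-mediated decay 1 was higher, beside 24.95% of all such transcripts, and ENST00000525782 of EIF3M was at 0.03 (-0.96 to 1.02). The share of member counts on retained introns was 4.26% and 4.25% in EtOH and 5.25% and 5.42% in HgCl2. Summed raw counts on retained introns in HgCl2 were 1.31 times those in EtOH for members and 1.16 times over all transcripts. The same ratio without regard to type was 1.05 for members and 0.93 over all transcripts. The share of counts on retained introns was thus higher in HgCl2 over all transcripts too. The share on coding transcripts was 94.7% and 94.8%, then 94.1% and 93.9%.

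Genes that act on these factors were taken as 4 lists. Of 28 transcripts of kinases and inhibitors of initiation, 3 were higher and 14 lower (50.0%), with a median of -0.96. Over all transcripts 19.2% were higher and 34.1% lower. Among all transcripts under 30 counts 50.9% were lower, but 10 of these 28 had more counts. Of these 10, 0 were higher and 3 lower, with a median of -0.47. Over all transcripts with at least 30 counts 15.5% were higher and 9.53% lower, with a median of 0.21. MTOR, the growth kinase that frees eIF4E, had 118 and 132 counts in EtOH and 36 and 31 in HgCl2 on ENST00000361445, a value of -1.75 (-2.35 to -1.20), while its retained intron ENST00000495435 was at 0.70 (0.02 to 1.41). EIF4EBP2, which sequesters eIF4E, had 2731 and 2770 against 1814 and 1817 counts, a value of -0.46 (-0.54 to -0.37). EIF2AK1, the haem-sensing kinase of EIF2S1, was at -0.48 (-0.67 to -0.30) and EIF2AK2, the kinase sensing double-stranded RNA, at 0.25 (0.16 to 0.34). EEF2K, which inactivates eEF2, had 394 and 384 against 217 and 225 counts, a value of -0.67 (-0.92 to -0.43). PPP1R15B, which directs a phosphatase to EIF2S1, was at 0.35 (0.26 to 0.43). Its stress-induced relative PPP1R15A split between a transcript with 51 and 51 against 16 and 22 counts and another with 1 and 0 against 26 and 29.

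Among partners in initiation, termination and recycling, 3 of 20 transcripts were higher (15%) and 7 lower (35%), with a median of 0.28. Over all transcripts 19.2% were higher and 34.1% lower, with a median of -0.21. GSPT2, the paralogue of GSPT1, had 139 and 133 counts in EtOH and 298 and 338 in HgCl2, a value of 1.37 (1.07 to 1.67), where GSPT1 was at 0.14. The recycling factors ABCE1 and DENR were at 0.43 (0.35 to 0.50) and 0.57 (0.49 to 0.65). In the same list the best-counted transcript of MCTS1 was at -0.10 (-0.28 to 0.08) and that of HBS1L at 0.17 (-0.09 to 0.42). A second MCTS1 transcript had 22 and 24 against 3 and 3 counts. Of the 10 transcripts of this list with at least 30 counts 8 were above 0, beside 61.1% of all at that depth. Enzymes that modify eIF5A and eEF2 had 2 higher and 2 lower of 4 transcripts, too few to set against those shares. DPH6, of the diphthamide pathway that modifies eEF2, had 91 and 93 against 266 and 256 counts, a value of 1.65 (1.30 to 2.01). Of 11 transcripts of mitochondrial translation factors 2 were higher (18.2%) and 4 lower (36.4%), near the shares over all transcripts. MRRF, which recycles mitochondrial ribosomes, had 130 and 136 against 256 and 238 counts, a value of 1.04 (0.73 to 1.35).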

How the data were processed

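Per the labels and the methods, RNA of H1299 cells was sequenced as poly(A) libraries for 2 EtOH and 2 HgCl2 samples; the label on treatment names 5 μM HgCl2 for all samples, and the groups were taken from the titles. The authors used Trim Galore 0.6.5 for trimming and STAR 2.5.4b for alignment (GRCh38), and made the deposited raw counts with Rsubread 2.0.1 on transcripts of Ensembl 98; the counting options, use of strand included, are not given in the sources used here. The authors made the deposited FPKM values from these counts with DESeq2 1.26.0; these served for the filter and for 2 alternatives.

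Log2 fold changes were fitted with edgeR 4.0.16 (R 4.3.3, TMM) over all 17547 transcripts whose mean FPKM exceeded 1 in EtOH or in HgCl2. Each group counted as 1 sample, so the quasi-likelihood test planned for replicates was not used and no p-value is given. In place of a test, calls are fold changes of at least 2, and intervals come from the mean counts. A fold against a group at 0 in both columns is a bound against 3 counts. The fit was tested on simulated data. Symbols, types and coordinates came from GENCODE 44 (GRCh38), which is newer than the annotation the authors used, and 223558 of 227368 identifiers were matched. Stretches of a transcript's own were computed without regard to strand.

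Members and lists were chosen with earlier results of these data known. Named transcripts were the best-counted of each gene with a mean of at least 200 counts, those past 2-fold with at least 30, the 3 best-counted of each type, and those of genes past 2-fold in both directions. Other transcripts were named after their values were seen. Alternatives changed the filter, scaling, unit, member list, replicate block and columns used.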

Additional observations from a re-analysis of the deposited data

How the results depend on the processing

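Counts of calls followed the filter on low values. With at least 10 counts in every column 5 member transcripts were higher and 6 lower, in 11 genes. With the fit and its scaling restricted to a mean of at least 30 counts there were 4 and 5, in 9 genes. With no FPKM filter there were 35 and 71 among 177 members, and the median was -0.50. Over all transcripts, leaving the filter out gave 20.7% higher, 47.6% lower and a median of -0.83. The 10-count setting kept 53 members, and over all transcripts it gave 11.1% higher and 12.7% lower. The 30-count setting kept 42 members, and over all transcripts it gave 11.4% and 12.6%. On the log2(FPKM + 1) scale 11 member transcripts were lower, and 18 member genes in place of 30 had a transcript past 2-fold. Counts summed per gene gave 6 genes higher and 7 lower, 13 in all, with a median of 0.29, beside 14.5% higher, 28.9% lower and a median of -0.10 over all gene sums. The coding share of member counts was 95.4% in EtOH and 94.5% in HgCl2 when only transcripts reaching 10 counts in each column were kept, in place of 94.7% and 94.0%. The median of all transcripts lay at -0.21 with TMM, -0.03 on the log2(FPKM + 1) scale and -0.38 with totals that leave out mitochondrial transcripts. The member median was between 0.15 and 0.33 above that of all transcripts in every setting computed on transcripts. With the 3 transcripts that have a bound set to it, the counts were 17 higher and 26 lower and the median stayed 0.03. Leaving out 1 column at a time gave 17 to 19 higher and 26 to 28 lower. The columns of a group are so alike that this step could hardly change the calls. With the replicate number as a block the counts stayed 17 and 28 and the median 0.03. The deviations of equally numbered columns had a correlation of 0.01 over 6763 transcripts, so the replicate block pairs nothing but a number. Differences in transcripts under 30 counts are limited by depth.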
